A study of Mus musculus with 2 samples.

Results

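The collagen genes were described in a CUT&RUN map of H3K4me3, a histone mark of promoters, made in mouse prospermatogonia. Members were the autosomal protein-coding genes whose symbol reads Col, a number, a and a number. They came to 42 of 21887 protein-coding genes on chromosomes 1 to 19, X and Y. Of the same name pattern, the X-linked Col4a5 and Col4a6 were outside the rule. Prospermatogonia are male germ cells found in the fetal testis, and here they were sorted at E17.5 by an Oct-GFP reporter. The design text gives 130000 cells for the H3K4me3 and IgG assays and does not say whether each had that number. The labels list 1 H3K4me3 library and 1 IgG library without replicates. Beyond the Oct-GFP reporter, the sources used here state no genotype, and they give no strain or sort purity. IgG values were not analysed here. In CUT&RUN an antibody-tethered nuclease cuts out the marked chromatin, and the DNA it frees is sequenced. With 1 library no test was possible, so the main values stand with a 95% interval for counting error.

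Collagens are secreted or membrane-bound proteins of the extracellular matrix whose chains wind into helical trimers. Fibrillar types form the rope-like fibres of skin, bone and cartilage, type IV forms the network of basement membranes, and other families coat, anchor or link these structures. In the fetal testis the basement membrane around the cords is laid down by somatic cells, and germ cells lie inside the cords. H3K4me3 is found at promoters of transcribed genes and also at many CpG-rich promoters of genes that are not transcribed. It therefore does not measure transcription.

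Most collagen genes carried a peak at an annotated end, about as often as protein-coding genes in general. A peak lay within 1 kb of an end in 33 of 42 genes, or 78.6% (Wilson interval 64.1 to 88.3), against 74.5% of all protein-coding genes. One end alone had a peak in 29 collagen genes (69.0%), against 60.7% of all genes. Both ends had a peak in 4 collagen genes, Col6a2, Col12a1, Col13a1 and Col23a1, against 13.8% of all genes. Peaks were inside the gene only in 7 collagen genes, against 8.88% of all genes, and 2 had no peak at all, Col6a3 and Col20a1, against 16.6%. These counts were not matched for gene length, and collagen genes are longer, with a median of 110 kb against 17.2 kb. Among the 7, Col6a5 had a peak at its start site, which lies inside the annotated gene. Fold enrichment is the authors' value for a peak, its summit pileup (the fragments stacked at its highest point) over a local background, each with 1 added. The highest fold at an end had a median of 5.39 over the 42 genes, with genes lacking such a peak at 0, and of 5.47 over all genes. A fold of at least 5 was reached by 23 of the 42, against 57.4% of all genes.

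RefSeq start sites, which carry strand, were at hand for 33 of the 42 genes, with 36 starts. A peak lay within 1 kb of a start in 25 of the 33 genes, or 75.8% (Wilson interval 59.0 to 87.2), against 73.3% of the 17492 protein-coding genes with a start in the same table. In each of these 25 genes peaks covered at least 880 of the 2001 bases of the start window, and in the other 8 they covered 0. The 25 had a median of 1241 bases covered and 46 fragments at the summit, against 1336 bases and 42 fragments over all genes with a start peak. At the 3′ end a peak was found in 4 of the 33 genes, against 17.7% of all genes.

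**Figure D1:**
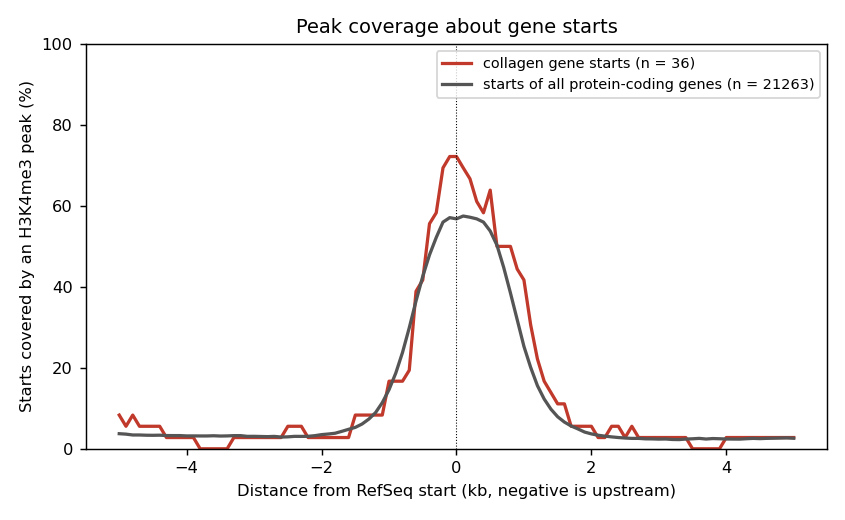
Share of RefSeq starts covered by an H3K4me3 peak (y axis, %) by distance from the start (x axis, kb, negative is upstream), in steps of 100 bp. The red line is 36 collagen gene starts and the grey line 21263 starts of all protein-coding genes; at the start itself 72.2% of collagen starts were covered, against 56.8% of all.

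Among the starts with a peak nearby, the peak covered the start base itself at 26 of 27 collagen starts (96.3%), against 79.5% of all such starts. Not all 27 are separate, as Col4a1 and Col4a2 share 1 peak and both Col6a2 starts share theirs. The same repeats enter the figures of starts and the CpG and motif counts. More bases were covered downstream than upstream at 18 of these 27 starts (66.7%), against 62.8% of all. Median coverage was 851 bases in the 1000 downstream and 620 in the 1000 upstream, against 735 and 584 bases over all starts. At the outer start of Col9a1, the 1 of the 27 with an uncovered start base, the peak ended before the start base and covered 942 upstream bases and 0 downstream.

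Collagen promoters with a peak held more CpG, by their medians, than those without. In the 300 bases about a start, 250 before and 50 after it, the 27 collagen starts with a peak held a median of 16 CpG dinucleotides, from 0 to 37. The 9 without a peak held a median of 3, from 0 to 6. Over all protein-coding starts the medians were 19 with a peak and 2 without. The bases before the start of 5 genes are shown because they include CpG-rich and CpG-poor starts with a peak and CpG-poor starts without one, in mm10 coordinates from the RefSeq table of build GRCm38.p6, 5′ to 3′ along the gene, with each CpG in capitals.
Col8a2 (chr4:126286544-126286793, plus strand): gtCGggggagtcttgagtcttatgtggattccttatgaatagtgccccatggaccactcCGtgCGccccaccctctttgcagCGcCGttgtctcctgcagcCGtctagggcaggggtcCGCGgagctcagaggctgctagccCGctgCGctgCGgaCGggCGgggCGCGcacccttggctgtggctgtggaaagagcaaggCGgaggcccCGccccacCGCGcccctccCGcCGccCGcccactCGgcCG
Col1a2 (chr6:4505368-4505617, plus strand): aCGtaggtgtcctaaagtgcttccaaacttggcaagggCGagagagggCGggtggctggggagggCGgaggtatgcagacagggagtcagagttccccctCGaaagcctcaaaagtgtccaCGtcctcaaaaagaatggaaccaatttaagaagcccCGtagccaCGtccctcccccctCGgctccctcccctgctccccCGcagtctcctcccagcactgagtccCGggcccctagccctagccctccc
Col24a1 (chr3:145292222-145292471, plus strand): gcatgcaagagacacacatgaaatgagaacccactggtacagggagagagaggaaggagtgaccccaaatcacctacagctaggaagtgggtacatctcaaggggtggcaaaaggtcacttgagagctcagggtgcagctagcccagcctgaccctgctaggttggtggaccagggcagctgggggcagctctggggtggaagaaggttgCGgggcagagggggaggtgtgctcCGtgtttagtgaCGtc
Col3a1 (chr1:45311288-45311537, plus strand): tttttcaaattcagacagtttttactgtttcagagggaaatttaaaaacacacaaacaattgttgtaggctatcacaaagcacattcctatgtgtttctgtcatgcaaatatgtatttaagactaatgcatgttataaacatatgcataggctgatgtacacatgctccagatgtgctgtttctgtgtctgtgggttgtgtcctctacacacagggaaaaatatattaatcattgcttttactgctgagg
Col6a1 (chr10:76726045-76726294, minus strand): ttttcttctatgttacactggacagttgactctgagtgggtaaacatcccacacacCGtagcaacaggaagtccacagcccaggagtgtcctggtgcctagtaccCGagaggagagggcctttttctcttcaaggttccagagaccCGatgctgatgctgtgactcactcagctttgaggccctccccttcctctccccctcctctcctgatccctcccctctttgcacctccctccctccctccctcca
Col8a2 holds 24 CpG in its 250 bases and Col1a2 holds 11, and peaks covered all 250 bases of both. Col24a1 was also covered over all 250 bases, with 3 CpG. Col3a1 holds 0 CpG, Col6a1 holds 3, and neither had a covered base.

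Relative to base composition, CpG observed over expected was below 0.2 at 7 collagen starts, and 2 of these had a peak (28.6%), against 19.7% of all starts in that range. The pair was the inner and the outer start of Col9a1, with values of 0.0431 and 0. Col9a1 is known to be transcribed from separate promoters in cartilage and cornea. From 0.2 to 0.4, 6 of 9 collagen starts had a peak (66.7%), against 49.0%, and from 0.4 to 0.6, 8 of 9 (88.9%), against 89.0%. All 11 collagen starts at 0.6 or more had a peak, against 98.5% of all starts from 0.6 to 0.8 and 99.3% from 0.8 upwards. Col10a1, at 0.408, had the highest value among collagen starts without a peak.

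**Figure D2:**
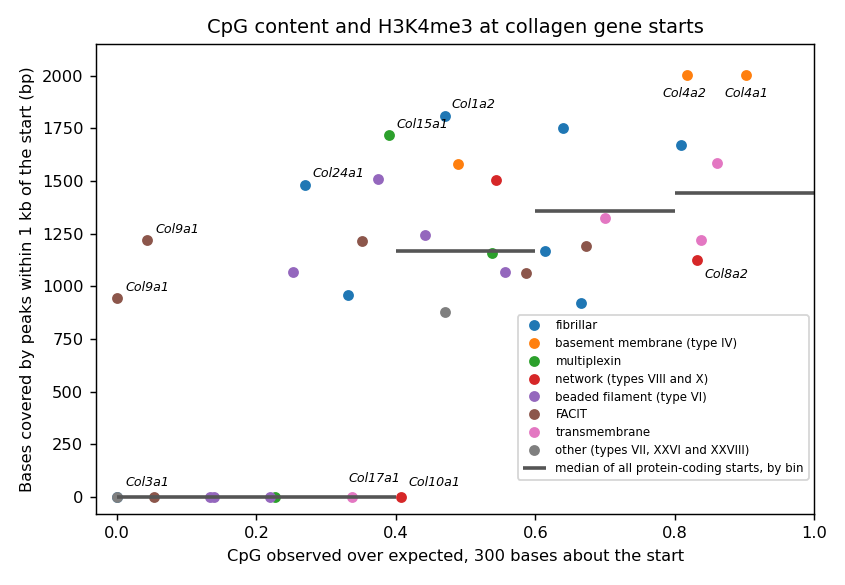
Bases covered by H3K4me3 peaks within 1 kb of a start (y axis, bp) against CpG observed over expected in the 300 bases about the start (x axis), for 36 collagen starts coloured by family. Grey lines are medians of all protein-coding starts by range of CpG; collagen starts without a covered base lie at values up to 0.408, and those at 0.6 or more are all covered.

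Short motifs were searched in the same 300 bases on both strands. GGGCGG, the GC box, was present at 21 of 36 collagen starts and in 46.2% of all starts. It contains a CpG and so overlaps the CpG counts. A peak was present at 20 of these 21 starts and at 7 of the 15 without the motif, against 94.9% and 51.4% of all starts with and without it. CCAAT was present at 12 collagen starts, Col1a2 among them, and in 38.2% of all starts. Of the 12, 10 had a peak, and of the 24 without CCAAT 17 had one, against 71.1% and 71.8% of all starts with and without it. TATAAA was present at 5 starts, those of Col3a1, Col10a1, Col11a2, Col13a1 and Col17a1, and in 12.6% of all. Col11a2 and Col13a1 had a peak and the other 3 did not, against 42.4% of all starts with TATAAA.

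Fibrillar collagens had a peak at an end in 10 of 11 genes, against 74.5% of all protein-coding genes, and Col3a1 was the exception. Col1a1 and Col1a2, the chains of type I collagen of bone, skin and tendon, had summit pileups of 45 fragments (32.8 to 60.2) and 50 fragments (37.1 to 65.9), with folds of 5.32 and 5.90. Their counting intervals overlap. The peak of Col1a1 was 2143 bp wide and lay just inside the annotated end, on chromosome 11 from 94936267 to 94938409. Col3a1, which encodes the type III collagen of vessels and skin, had no peak within 1 kb of an end and none within 4722 bp of its start. Its only peak lay inside the gene on chromosome 1 from 45331218 to 45332593, with 45 fragments and a fold of 8.71. Neighbouring Col5a2, 24.6 kb away, had an end peak of 1546 bp with 45 fragments (a fold of 7.20, 5.29 to 9.58).

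The type V chains, which regulate the assembly of type I fibrils, all had an end peak, against 74.5% of all protein-coding genes. Col5a1 had 46 fragments and a fold of 6.22, and its peak covered 1669 bases of the start window. Col5a3 had 26 fragments and 919 bases covered. The Col5a3 peak was thus narrower than that of Col5a1, while its fold of 6.83 was set against a background of 2.95 fragments, against 6.56 for Col5a1. The cartilage chains Col2a1, Col11a1 and Col11a2 had 43, 56 and 30 fragments and folds of 3.97, 4.95 and 6.85. The Col11a2 peak also lay within 1 kb of an end of Rxrb, a retinoid receptor gene, so it cannot be assigned to Col11a2 alone. Col24a1 and Col27a1, minor fibrillar chains, had 48 and 46 fragments and folds of 6.38 and 3.96.

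The type IV collagen genes of basement membranes lie in head-to-head pairs, and each pair shared 1 peak. Col4a1 and Col4a2, whose products are found in basement membranes throughout the body, overlap by 85 bp on chromosome 8, and their RefSeq starts are 21 bp apart on opposite strands. A single peak of 2279 bp, from 11311764 to 11314042, had 46 fragments (33.7 to 61.4) and a fold of 4.64 (3.42 to 6.15). It covered all 2001 bases of the start windows of both genes and ran 1041 bp beyond one end and 1153 bp beyond the other. The 300 bases about the starts held 37 CpG for Col4a1 and 33 for Col4a2. The summit lay 464 bp downstream of the Col4a1 start and at -443 bp from the Col4a2 start, which is upstream of it.

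Col4a3 and Col4a4, which with the X-linked Col4a5 form the collagen of the kidney filter, overlap by 114 bp on chromosome 1. Their shared peak of 1581 bp, from 82585889 to 82587469, had 51 fragments (38.0 to 67.1) and a fold of 7.01 (5.26 to 9.18). The pileup interval overlaps that of the Col4a1 and Col4a2 peak, over a background of 6.41 fragments, against 9.13. The Col4a4 start held 14 CpG in its 300 bases. One peak at 2 starts cannot be divided between the genes, so the 33 genes with an end peak stand for 31 separate loci of 40. Col9a1 and Col19a1, the other collagen genes with ends within 5 kb of each other, are 4944 bp apart at their 3′ ends, and neither had a peak there.

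Both multiplexin genes, whose products lie next to basement membranes, had a peak at a start, against 73.3% of all protein-coding genes with a start. Col15a1 had a peak of 1870 bp with 49 fragments (36.3 to 64.8) and a fold of 6.19, which also lay within 1 kb of an end of the noncoding gene Gm12426. Col18a1, the source of the fragment endostatin, had 49 fragments and a fold of 7.44 at its outer start. Its inner RefSeq start, at 77113705 on chromosome 10, had 0 bases covered.

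Of the network-forming collagens, Col8a1 and Col8a2 had start peaks and Col10a1 had none, against 73.3% of all protein-coding genes with a start. Col8a1 and Col8a2, chains of the type VIII collagen of the cornea and vessel walls, had 52 and 44 fragments and folds of 7.81 (5.87 to 10.2) and 8.20 (6.01 to 10.9). Col10a1 is a marker of hypertrophic cartilage. Its start had 0 covered bases, and its end call came from a peak of 254 bp with 29 fragments near the 3′ end, beside an internal peak of 1804 bp with 45 fragments. The joined region of these 2 peaks measured 2171 bp and began 3992 bp downstream of the start. The bases before the start also lie in another gene, Nt5dc1, whose part in these peaks was not tested.

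Of the type VI collagen genes 2 of 6 had an end peak, against 74.5% of all protein-coding genes. Type VI collagen forms beaded filaments near cells, from the Col6a1, Col6a2 and Col6a3 chains in most tissues. Of these, Col6a2 had a peak of 910 bp with 35 fragments (24.4 to 48.7) and a fold of 7.66 that covered both its starts, and 1 of 1109 bp with 25 fragments near its 3′ end. Col6a1, 85.2 kb away, had no peak within 1661 bp of its start and 1 internal peak of 1175 bp with 40 fragments. A peak upstream of the Col6a1 start, from -2534 to -1661 bp, had 49 fragments and a fold of 7.09. Col6a3 had no peak at all, and the nearest lay 65599 bp from its start. Among the chains of 1 trimer, then, only Col6a2 had a peak within 1 kb of an end, and this depends on the window. With 1 library, no difference between families was tested.

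The chains Col6a4, Col6a5 and Col6a6, which can take the place of the Col6a3 chain, lie side by side on chromosome 9. Col6a6 had a peak of 1241 bp with 36 fragments (25.2 to 49.8) and a fold of 8.45 at its start. Col6a5 had none within 1 kb of its annotated ends, but 1 of 1509 bp (41 fragments, a fold of 7.63) at its RefSeq start, which lies inside the annotated gene. By start, then, 3 of the 6 type VI genes had a peak. Col6a4 had none within 2265 bp of its start and 5 internal peaks, with folds of 4.02 to 11.1.

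**Figure D3:**
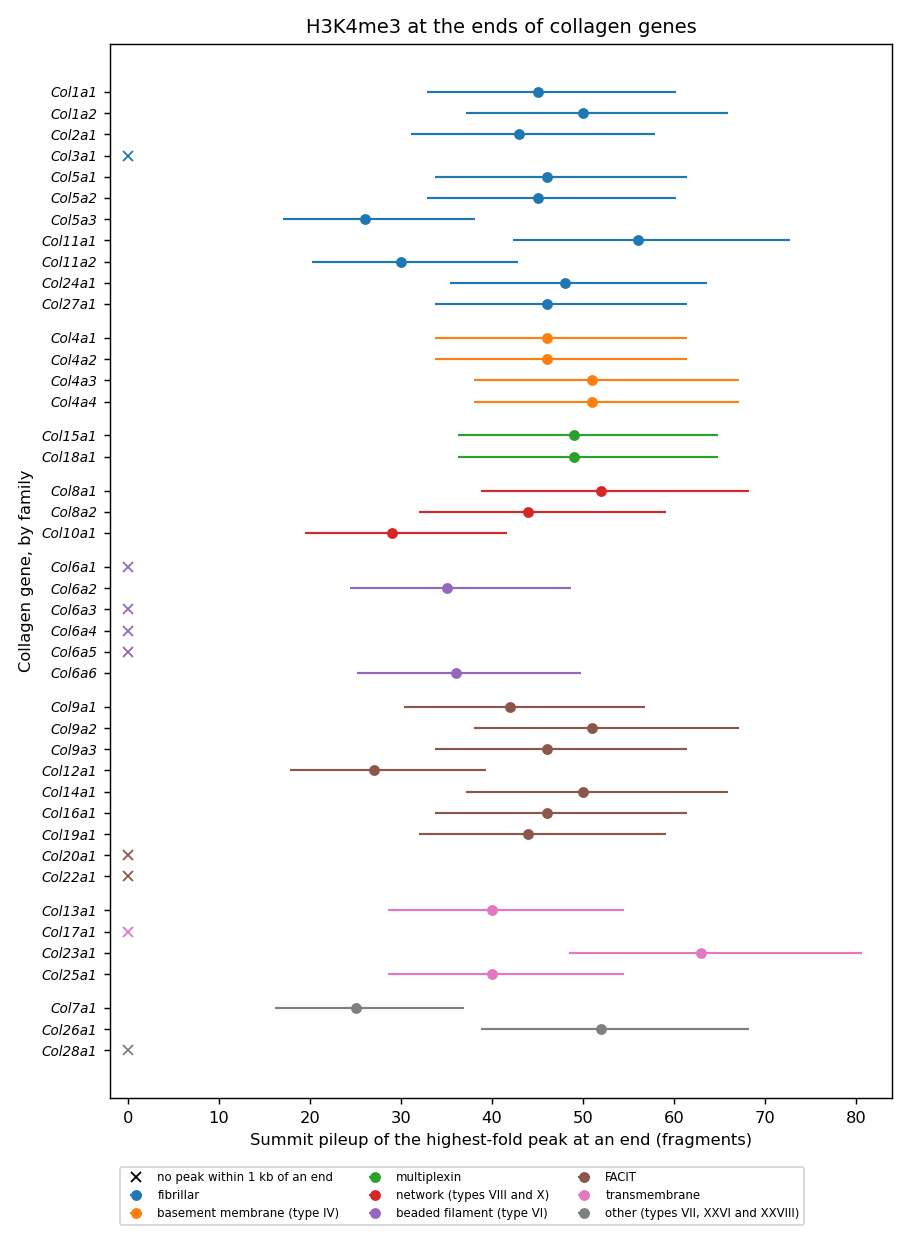
Summit pileup (x axis, fragments, with 95% exact Poisson intervals as bars) of the highest-fold peak within 1 kb of an end, for each of 42 collagen genes by family (y axis). Crosses at 0 are the 9 genes without such a peak, 4 of them in the type VI family; pileups of the other 33 lie between 25 and 63 fragments.

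The FACIT genes, whose products coat fibrils, had an end peak in 7 of 9 cases, against 74.5% of all protein-coding genes. The 3 type IX chains of cartilage, Col9a1, Col9a2 and Col9a3, had 42, 51 and 46 fragments with folds of 6.65, 4.44 and 6.49. Col16a1 had a peak of 1063 bp with 46 fragments and a fold of 8.21 (6.06 to 10.9), which also lay within 1 kb of an end of the noncoding gene Gm12963. Col14a1 had 50 fragments and a fold of 4.89, and Col19a1 had 44 fragments and 4.10. Col12a1, a collagen of tendon and ligament, had the highest fold at an end among the 42 genes, 8.99 (6.04 to 12.9). That peak was 755 bp wide with 27 fragments over a background of 2.11 fragments, the lowest the list holds. At its other end a peak of 190 bp had 31 fragments and a fold of 2.18. With peaks no more than 1000 bp apart merged, that peak belonged to a region of 2304 bp made of 4 peaks. These had up to 41 fragments and folds of 1.99 to 2.31. Strand for Col12a1 was not in the tables used, so these ends were not assigned to a start.

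Without an end peak were Col20a1 and Col22a1. Col20a1 had no peak at all, and the nearest lay 18331 bp from its start. Col22a1, a gene of 355 kb for a collagen of the muscle and tendon junction, held 6 internal peaks with folds of 6.0 to 10.3 and 23 to 38 fragments.

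Transmembrane collagens had an end peak in 3 of 4 genes, against 74.5% of all protein-coding genes. Col23a1 had the highest pileup of the 42 genes, 63 fragments (48.4 to 80.6), at a fold of 8.63 (6.66 to 11.0), in a peak 682 bp wide on chromosome 11 from 51290327 to 51291008. A further peak of 732 bp with 41 fragments covered its start. The peak at its 3′ end, 1568 bp with 43 fragments, also lay within 1 kb of an end of the neighbouring gene Phykpl. Col13a1, a collagen of the neuromuscular junction, and Col25a1, first found in amyloid plaques, each had 40 fragments, with folds of 4.09 and 5.16. Col17a1, which anchors skin cells to the basement membrane, had none within 3821 bp of its start. It held 1 internal peak of 1111 bp with 42 fragments and a fold of 10.8.

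Of the remaining collagens, Col7a1 and Col26a1 had an end peak and Col28a1 had none, against 74.5% of all protein-coding genes. Col7a1 forms the anchoring fibrils of skin. Its start peak was 880 bp wide with 25 fragments (16.2 to 36.9) and a fold of 8.35 over the lowest background of 2.11. Col26a1, known from the testis and ovary, had 52 fragments (38.8 to 68.2) in an end peak of 1265 bp with a fold of 5.47. Col28a1 had no peak within 4385 bp of its start and 5 internal peaks, the highest with 46 fragments.

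**Figure D4:**
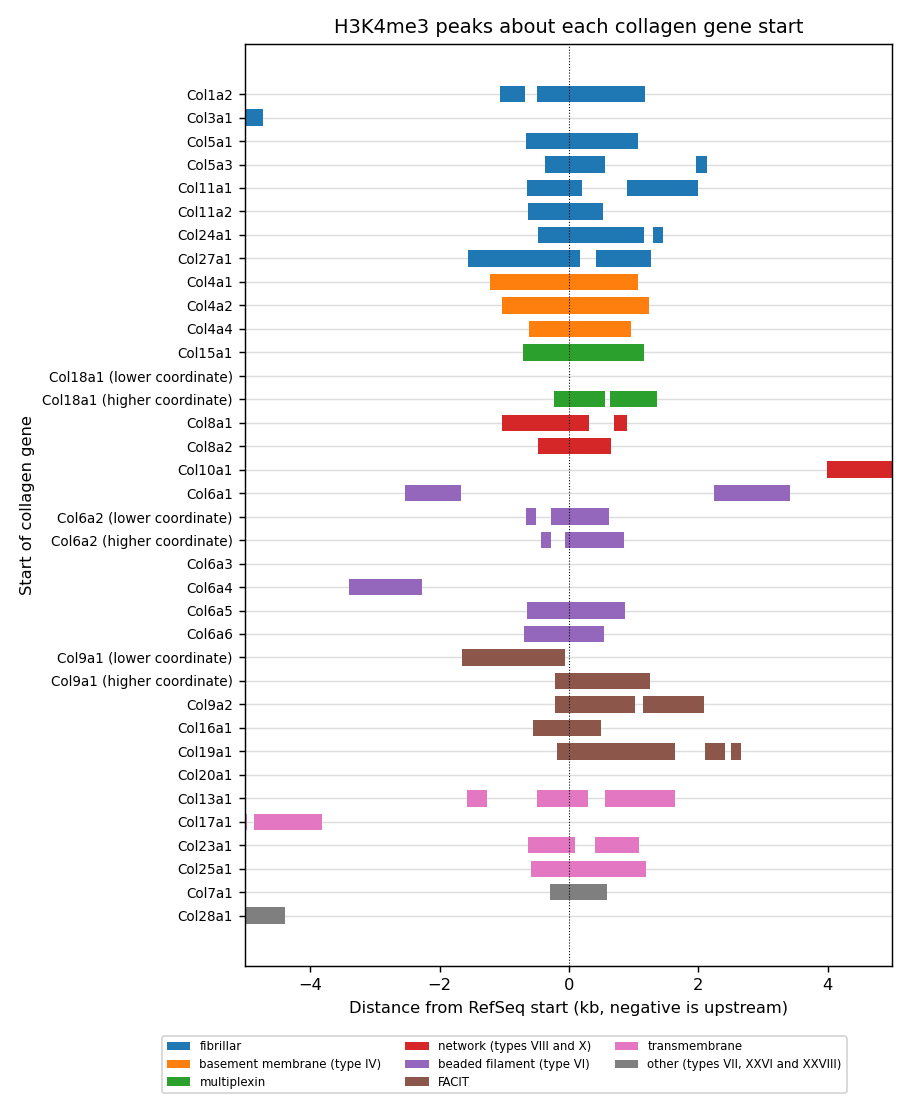
H3K4me3 peaks (bars) within 5 kb of each of 36 RefSeq starts of collagen genes (y axis, by family) by distance from the start (x axis, kb, negative is upstream). Starts with a peak carry it across or close to 0; those of Col3a1, Col10a1, Col6a1, Col6a3, Col6a4, Col20a1, Col17a1, Col28a1 and the inner start of Col18a1 have none within 1 kb.

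Wide regions of the mark were found at a minority of collagen genes. Neighbouring peaks no more than 1000 bp apart were merged, and the widest 5% of the merged regions measured at least 2002 bp. An end lay in such a region in 8 of 42 genes, against 16.8% of all protein-coding genes. With a region within 1 kb of an end the count was 13 genes, against 18.6% of all. The widest was 3216 bp at Col13a1, made of 3 peaks. Col19a1 with 2850 bp, Col27a1 with 2827, Col11a1 with 2636 and Col14a1 with 2607 followed. Each of these 5 was made of 2 or 3 peaks, and their highest folds at an end, from 3.96 to 4.95, lay below the median of 5.39 over the 42 genes. Local backgrounds were 9.02 fragments at Col13a1, 9.99 at Col19a1, 10.9 at Col27a1, 10.5 at Col11a1 and 9.43 at Col14a1. All 5 lay above the median of 6.56 fragments for peaks at collagen gene ends.

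The 5 highest folds at an end belonged to Col12a1, Col23a1, Col6a6, Col7a1 and Col16a1, from 8.99 to 8.21. None of these peaks lay in a wide region. Their backgrounds were 2.11, 6.41, 3.38, 2.11 and 4.72 fragments. Fold and pileup thus ranked the genes differently: Col7a1, among the 5 highest by fold, had the lowest pileup of the 33, 25 fragments.

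Collagen genes are long, with a median of 110 kb against 17.2 kb for all protein-coding genes, and their internal peaks were therefore counted per length. Over 1 kb from both ends lay 164 peaks in 34 of the 42 genes. Of all 21887 protein-coding genes, shorter by their median, 8778 held such a peak. Density inside collagen genes was 3.39 per 100 kb (2.89 to 3.95), against 3.04 (3.01 to 3.08) over all protein-coding genes. Without Col19a1 and Col26a1, the 2 genes with most internal peaks, it was 2.63 (2.17 to 3.16). Both collagen intervals include the general density, which was not matched for gene length. In genes under 20 kb, of 20 to 50, 50 to 100, 100 to 150 kb and longer, collagen densities were 12.3, 3.77, 2.02, 3.94 and 2.84. Over all protein-coding genes of these lengths they were 5.40, 3.46, 2.68, 2.55 and 2.84. The ranges held only 4, 11, 3, 15 and 9 collagen genes, and their densities are given without an interval. Col26a1, at 142 kb, falls in the range of 100 to 150 kb, and Col19a1, at 330 kb, in the longest. Col19a1 held 26 internal peaks, or 7.92 per 100 kb, with 12 to 50 fragments. Of these, 2 had a summit within 10 kb of the start. Col26a1 held 23, or 16.5 per 100 kb, with 11 to 52 fragments.

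Next by number came Col24a1 with 11, Col8a1 with 9 and Col4a3 with 8. The 8 collagen genes without an internal peak, against 13109 of 21887 protein-coding genes, included Col5a1 and Col18a1, both over 100 kb long. Internal peaks of collagen genes had a median width of 642 bp and 30 fragments, against 1080 bp and 43 fragments for the 45 peaks at their ends. Over all protein-coding genes these medians were 566 bp and 28 fragments for internal peaks, and 862 bp and 38 fragments at ends. Fold ran the other way, with a median of 6.42 inside collagen genes and 5.66 at their ends, beside median backgrounds of 3.12 and 6.56 fragments. Over all protein-coding genes it did so too, with 6.01 inside and 5.39 at ends, beside backgrounds of 3.08 and 6.18 fragments.

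**Figure D5:**
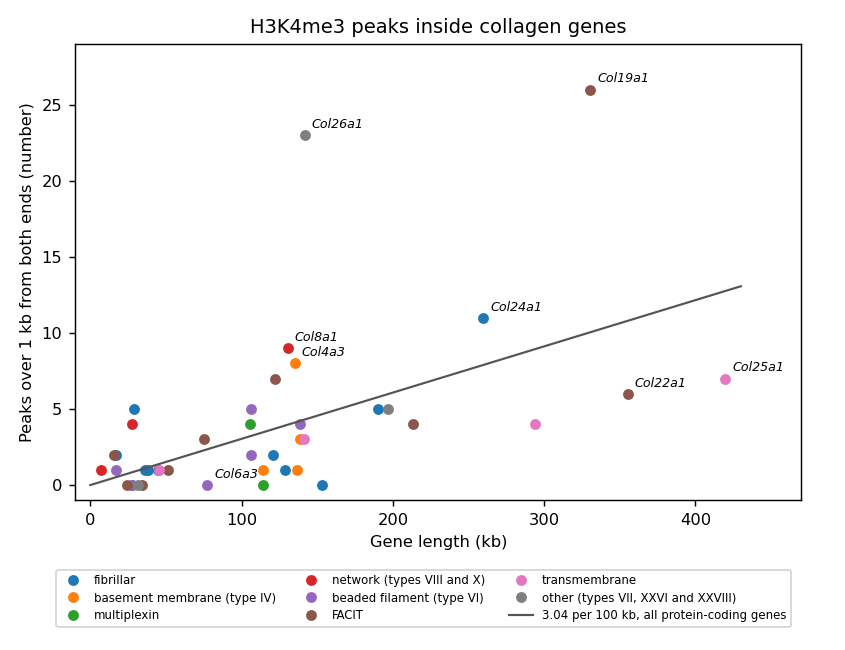
Number of H3K4me3 peaks over 1 kb from both ends (y axis) against gene length (x axis, kb) for 42 collagen genes coloured by family. The line is the density over all protein-coding genes, 3.04 per 100 kb; Col19a1 with 26 and Col26a1 with 23 lie far above it, and Col25a1 with 7 and Col22a1 with 6 below.

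Length did not order the calls at ends in the collagen genes. Of genes under 20 kb 3 of 4 had an end peak (75%), against 66.9% of all genes of that length, and of those of 50 to 100 kb 2 of 3 (66.7%), against 84.6%. For genes of 100 to 150 kb an end peak was found in 13 of 15 (86.7%), against 85.7% of all genes of that length, and for longer ones in 7 of 9 (77.8%), against 88.4%. In the range of 20 to 50 kb the count was 8 of 11 (72.7%), against 81.0%.

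The 4 lists of genes for collagen modification, processing and receptors and for basement membrane partners mostly had a peak at an end. Together it was 50 of 57, against 74.5% of all protein-coding genes, with a median highest fold of 5.60 against 5.47. In the list for modification and folding of the chains 17 of 18 had one. It was led by the collagen galactosyltransferase genes Colgalt1 at a fold of 7.14 (5.21 to 9.55) and Colgalt2 at 7.05, and by the prolyl hydroxylase gene P4ha2 at 6.81. Serpinh1, the chaperone of procollagen, had a fold of 5.36 with 36 fragments. Plod2, a lysyl hydroxylase gene, had no end peak and 1 inside. The neighbours Fkbp10 and P3h4 had the same fold, 4.66, and the same 39 fragments and 1540 bp, so 1 peak stands for both.

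Processing and cross-linking genes had an end peak in 12 of 15 cases, led by the matrix metalloproteinase gene Mmp2 at 9.03 (6.54 to 12.2), Pcolce2 at 7.05 and the lysyl oxidase gene Loxl4 at 6.75. Mmp13, Pcolce and Tll2 had none, although 1732 bases were covered at the RefSeq start of Tll2. Collagen receptors had one in 8 of 10 cases, led by Ddr2 at 8.60, Itga11 at 8.09 and Mrc2 at 8.06. The start of Ddr2 had 0 covered bases, so its fold came from elsewhere. Gp6 and Lair1, receptors of platelets and leukocytes, had none at an end. The laminin and other basement membrane genes had one in 13 of 14 cases, led by Lama2 at 8.96, Lamb2 at 8.72 and the perlecan gene Hspg2 at 8.15, and Lamb3 had no peak.

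Markers of the sorted cells and of other testis cells were read in the same way, against 74.5% of all protein-coding genes with an end peak and a median highest fold of 5.47, with genes lacking a peak at 0 in each median. Germ cell markers had an end peak in 12 of 14 genes, with a median fold of 5.22, and Nanos2 and Nanos3 had no peak. Their highest folds were 9.84 at Piwil4, 7.64 at Dppa4 and 7.60 at Tex101. Sertoli cell markers had one in 8 of 10 genes, with a median fold of 3.70. Among these, Clu had a fold of 8.32, Dhh 6.93 and Cldn11 5.75. Gata4 and Nr5a1 had none at an end, with 14 and 4 internal peaks. Interstitial, Leydig and peritubular markers had one in 5 of 10, with a median of 1.45. Acta2, a smooth muscle actin gene of peritubular cells, had a fold of 10.1 with 41 fragments, Myh11 5.16, Tcf21 3.90, Nr2f2 3.78 and Nr2f1 2.91. The RefSeq start of Nr2f2 had 0 covered bases, as had that of Inha, counted among the Sertoli cell markers with an end peak. The Leydig cell genes Cyp17a1, Hsd3b1, Insl3 and Star had no peak at an end or inside, and Pdgfra had none at an end, with 131 bases covered at its RefSeq start and 4 internal peaks. Of the endothelial markers, 3 of 6 had one, with a median of 3.69. Tek had a fold of 8.63, Kdr 8.22 and Emcn 7.39, and Cdh5, Pecam1 and Tie1 had none at an end. Collagen genes are expressed by these somatic cells, and the part of any such cells in the collagen peaks was not tested. Over the whole list there were 135064 peaks, with a median pileup of 27 fragments, from 9 to 316. The sources used here state no total of fragments.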

How the data were processed

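H3K4me3 was profiled by CUT&RUN in 1 library. The submitters' processing notes name MACS2 2.1.0, the builds mm10 and sacCer3, Bowtie2 2.5.0, Trim Galore, deepTools 3.5.1, bedtools 2.27.1 and SAMtools 1.16.1, with settings not given in the sources used here. What the authors deposited was a peak list with a fold (a ratio to local background), −log10 p and −log10 q per peak, and a score, which is 10 times the −log10 q without decimals in 99.999% of peaks. The peaks on chromosomes 1 to 19, X and Y, 134677 of 135064, were used, all with −log10 q of at least 2.

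Pileup and background of each summit were recovered from fold and −log10 p as a whole-number Poisson solution within 0.0001, for 134668 peaks. The fold is read against the surroundings of a peak, and the sources used here do not state whether IgG entered it. Gene ends came from a GRCm38.p6 gene table, and starts and strand from a RefSeq promoter table matched by gene ID, with entries for 33 of 42 members. Col1a1, Col2a1, Col4a3, Col5a2, Col9a3, Col12a1, Col14a1, Col22a1 and Col26a1 had no entry. A listed symbol, Col21a1, was not matched.

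Calls were peaks overlapping 1 kb either side of an end or start. Shares have Wilson intervals, and pileups, folds and densities exact Poisson intervals, which cover counting error only. Members and lists were chosen with earlier results of these data known. Fuller values were given for pairs within 5 kb, the 5 highest folds, the 5 widest regions, the 5 with most internal peaks and all members without an end peak. In pathway lists, the 3 highest folds and members without an end peak were named, and others were chosen after their values were seen. On simulated data 200 of 200 planted genes among 21887 were called with 0 extra, and 20000 of 20000 pileups were recovered. These counts check the code alone and give no error rate for calls or pileups in the real peak list. In the real set, 17 members had an end of another protein-coding gene within 5 kb. Scripts ran in Python 3.11.15 with scipy 1.17.1, pandas 2.3.3, numpy 2.4.6, matplotlib 3.10.9 and statsmodels 0.14.6.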

Additional observations from a re-analysis of the deposited data

How the results depend on the processing

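The count of collagen genes with an end peak, 33, lay between 23 and 36 under stricter peaks, other windows and other overlaps, with 23 at a fold of at least 5. With no end of another protein-coding gene within 5 kb, 18 of 25 had one. With each pair that shares a peak counted once, an alternative chosen after seeing the data, it was 31 of 40. The share of all genes was not computed for either of these settings. Start peaks were found in 18 to 27 of 33 genes, against 56.5% to 77.1% of all genes with a start. The median fold ran from 4.86 to 6.43, against 5.19 to 5.86 over all genes. Genes without any peak were 2 or 3, against 14.7% to 28.8% of all genes. The count in wide regions, 8, depended on the definition. It was 5 with a fold of at least 5, 2 with a join gap of 3000 bp, 14 for the widest 10% and 4 for the widest 2%, against 12.9%, 10%, 30.4% and 7.23% of all genes. It was 11 with a join gap of 0 bp, against 19% of all genes, and 13 within 1 kb of an end, against 18.6%, the last also chosen after seeing the data. The share of all protein-coding genes with an end peak was 73.8% with −log10 q of at least 5, 57.4% with a fold of at least 5, 72.2% with 20 fragments, 70.6% within 500 bp and 80.5% within 2500 bp. It was 72.3% with 200 bp shared and 70.5% with the summit in the window. Internal density was 2.29 per 100 kb with a fold of at least 5 and 2.5 with 20 fragments, against 1.96 and 2.3 over all genes. It was 2.63 without Col19a1 and Col26a1, taken from the collagen side alone after seeing the data. Fewer peaks or genes enter each of these. No paired analysis was possible because 1 library was analysed. Pileups of 25 to 63 fragments have intervals too wide to rank most members.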
